A study of Mus musculus with 20 samples.

Results

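Small leucine-rich proteoglycans are secreted matrix proteins with a core of leucine-rich repeats, and 7 genes of the family are described here, Fmod, Prelp, Dcn, Lum, Bgn, Ogn and Omd. They were taken by symbol from the deposited gene table, which lists 16927 genes and holds all 7. The 7 were picked by name within their family with counts of these same 8 libraries known, so their own values below are a description in every comparison. RNA had been sequenced from cultured stem cells of adult mouse spinal cord, in which exon 3 of Yap1 can be deleted by Cre recombinase. Cells labelled KO were infected with an adenovirus that drives Cre from the CMV promoter, and the labels do not say whether WT cells received virus or carried the deletable allele. WT proliferation and KO proliferation are neurospheres after 7 days of growth with heparin, EGF and FGF2, and WT differentiation and KO differentiation are cells after 5 days of differentiation. All groups shared a DMEM-F12 medium with N2 and B27 supplements. Of 20 labelled samples, the 8 analysed here are replicates 7 and 8 of each group (n = 2), with total counts from 18075595 to 18940983. The labels do not say that replicates come from separate animals or cultures, and the p-values reflect the spread among these particular samples alone, and that spread may be technical.

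These proteins bind collagen fibrils and set their spacing and width, and several also hold growth factors of the TGF-beta family. Decorin (Dcn) and biglycan (Bgn) carry chondroitin or dermatan sulfate chains, while fibromodulin (Fmod), lumican (Lum), osteoglycin (Ogn) and osteomodulin (Omd) can carry keratan sulfate. PRELP has a basic end that binds heparan sulfate and heparin. In the nervous system, fibroblasts of the meninges and vessels are the best known source of decorin and lumican, and astrocyte lineage cells are also known to make some of these proteins.

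The genes lie in clusters, as positions in the deposited table show (GRCm38). Fmod (gene ID 14264, chromosome 1, 134037254 to 134048280, plus strand) and Prelp (gene ID 116847, chromosome 1, 133910304 to 133930102, minus strand) are 107 kb apart. Dcn (gene ID 13179, chromosome 10, 97479500 to 97518163) and Lum (gene ID 17022, chromosome 10, 97565501 to 97572703) are 47.3 kb apart. Omd (gene ID 27047, chromosome 13, 49582462 to 49592612) and Ogn (gene ID 18295, chromosome 13, 49608015 to 49624501) are 15.4 kb apart. Bgn (gene ID 12111) stands alone on chromosome X, 73483601 to 73495936.

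Fmod, Prelp and Bgn were the members whose transcripts were more abundant in differentiation, and their promoter windows are shown for that reason. Each window runs from 250 bases before to 50 bases after a RefSeq start (GRCm38.p6), 5′ to 3′ on the gene's strand, with CpG pairs in capitals. They are chr1:134037004-134037303 (plus strand) for Fmod, chr1:133921352-133921651 (minus strand, inside the annotated span of Prelp) for Prelp and chrX:73483351-73483650 (plus strand) for Bgn.
Fmod: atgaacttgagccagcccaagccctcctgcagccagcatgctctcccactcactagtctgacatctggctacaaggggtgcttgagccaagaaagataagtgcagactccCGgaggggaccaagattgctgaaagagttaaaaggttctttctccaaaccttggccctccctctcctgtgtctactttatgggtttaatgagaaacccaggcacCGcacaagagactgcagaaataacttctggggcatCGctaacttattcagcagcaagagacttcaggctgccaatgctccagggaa
Prelp: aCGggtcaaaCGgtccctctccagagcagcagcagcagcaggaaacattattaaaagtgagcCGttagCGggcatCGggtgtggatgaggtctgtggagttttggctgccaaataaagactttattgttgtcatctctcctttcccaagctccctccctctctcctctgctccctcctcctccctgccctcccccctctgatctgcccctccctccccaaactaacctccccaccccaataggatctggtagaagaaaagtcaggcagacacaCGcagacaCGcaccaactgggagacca
Bgn: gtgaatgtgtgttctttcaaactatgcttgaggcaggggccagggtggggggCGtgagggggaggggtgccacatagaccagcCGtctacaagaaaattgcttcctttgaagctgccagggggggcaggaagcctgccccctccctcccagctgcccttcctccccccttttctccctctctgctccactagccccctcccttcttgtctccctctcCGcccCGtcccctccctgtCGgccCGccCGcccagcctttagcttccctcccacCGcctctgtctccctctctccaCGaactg
The Fmod window holds 3 CpG pairs, Prelp 7 and Bgn 9, beside a median of 7 over 32851 RefSeq windows of the same length. Their GC content was 51.0%, 55.3% and 63.7% in that order, with a median of 52.7% over all windows. The CpG content relative to base composition was 0.155, 0.326 and 0.317, all below the median of 0.384. Ogn (4 pairs) and Omd (1 pair) also had windows, and Dcn and Lum had none in the table used. The CpG content of Ogn (0.303) and Omd (0.0943) lay below that median too, so a low value was not particular to the members that rose. The core of TEAD sites, GGAATG, was searched on both strands because TEAD factors are the DNA-binding partners of YAP1. It occurs in none of the windows of Fmod, Prelp, Bgn and Omd and once in that of Ogn, and 14.7% of all windows hold it.

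Yap1, the targeted gene, had a log2 difference of KO from WT of -2.42 (SE 0.162) in proliferation (edgeR adjusted p = 0.0322) and -1.99 (SE 0.161) in differentiation (edgeR adjusted p = 0.106), and no KO library reached a WT level. Its call in proliferation was lost when any 1 library was left out. Of the 7 proteoglycan genes, 4 passed the filter on low counts (Prelp, Fmod, Bgn and Lum), as did 13046 genes in all. The other 3 (Dcn, Ogn and Omd) did not reach it in any group. Members that passed only through the group where they are high had to differ between groups, so their counts below are no support for a difference.

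Prelp was the most abundant member, and its transcript rose in differentiation in both genotypes. On the length-corrected TPM scale it was at 9.31 and 3.78 in WT proliferation (replicates 7 and 8) and at 10.74 and 2.95 in KO proliferation. It was at 92.45 and 114.56 TPM in WT differentiation and at 49.69 and 57.32 TPM in KO differentiation. All 4 differentiation libraries lay above all 4 proliferation libraries, and the WT differentiation libraries lay above the KO ones. In proliferation, replicate 8 was below replicate 7 in both genotypes, with CPM ratios of 0.379 in WT and 0.265 in KO.

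Prelp made up most of the summed TPM of the 7 genes in 7 of the 8 libraries. Its share was 80.7% and 66.1% in WT proliferation and 82.8% and 42.4% in KO proliferation. In KO proliferation replicate 8, Lum held 50.4%, the larger share. The share of Prelp on differentiation was 91% and 83.7% in WT and 92.8% and 80.5% in KO. The summed TPM ran from 5.72 to 12.97 in proliferation and from 53.55 to 136.8 in differentiation.

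**Figure D1:**
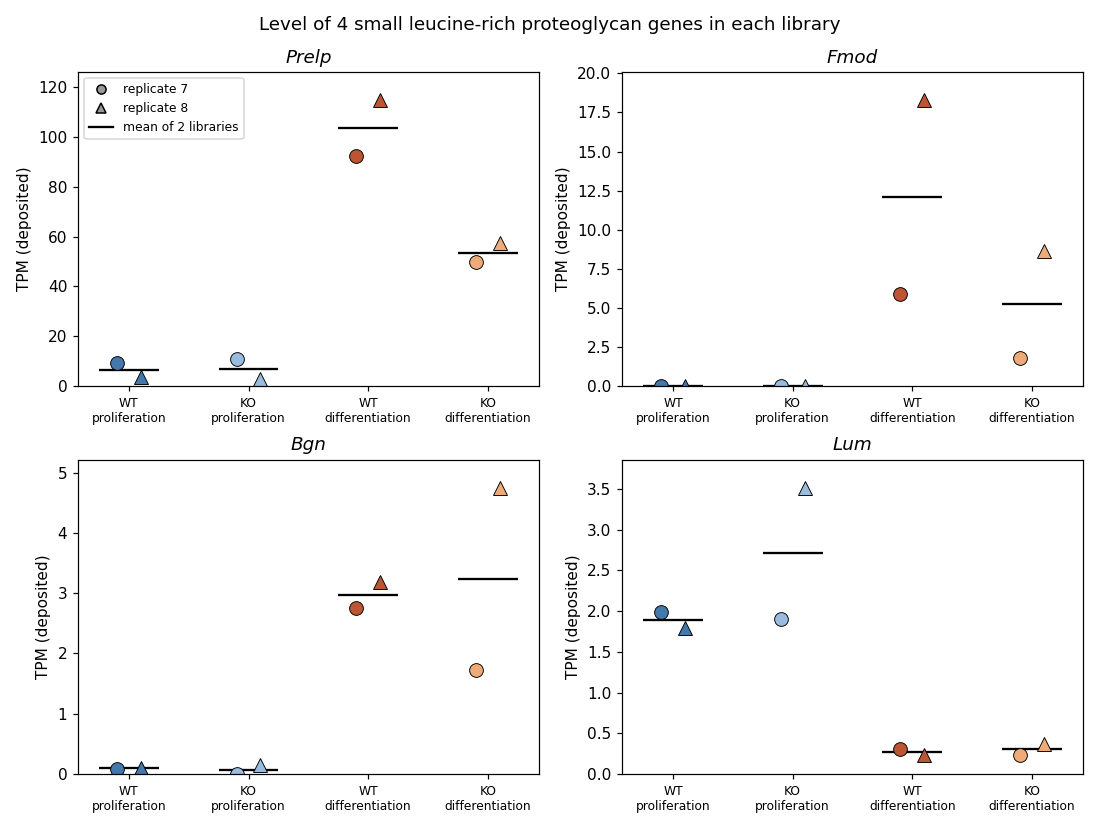
TPM (deposited, linear axis from 0) of Prelp, Fmod, Bgn and Lum in each library of the 4 groups, with replicate 7 as circles, replicate 8 as triangles and the mean of 2 libraries as a line. Prelp reaches 114.56 TPM and Fmod 18.27 TPM in WT differentiation, while Lum is highest, at 3.51 TPM, in a KO proliferation library.

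Fmod, whose protein binds collagen and crosslinking enzymes, went from nearly no reads to clear expression. It had 0 counts in both WT proliferation libraries and 0 and 1 count in KO proliferation. Differentiated WT cells had 150 and 469 counts and KO cells 48 and 219, which is 5.88 and 18.27 TPM in WT and 1.84 and 8.63 TPM in KO. No differentiation library overlapped a proliferation library. Within differentiation, replicate 8 stood above replicate 7, 2.99 times in WT and 4.29 times in KO (CPM ratios), so the genotypes overlapped.

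Bgn showed the same direction at a lower level. Proliferating cells had 2 and 2 counts in WT and 0 and 3 in KO, and differentiated cells had 53 and 62 in WT and 34 and 91 in KO. On the TPM scale that was 0.09 and 0.10, 0 and 0.15, 2.75 and 3.19, and 1.73 and 4.74 in the same order. The conditions did not overlap and the genotypes did.

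Lum ran the other way. Its counts were 37 and 31 in WT proliferation and 33 and 59 in KO proliferation, against 5 and 4 (WT) and 4 and 6 (KO) in differentiation. On the TPM scale it was at 1.99 and 1.79, then 1.91 and 3.51, in proliferation, and between 0.24 and 0.37 in differentiation. Every proliferation library lay above every differentiation library, and KO proliferation replicate 8 lay above the rest. The same library stood apart for Col3a1, a fibrillar collagen gene and fibroblast marker, with 112 counts against 4 and 14 in WT proliferation and 6 in KO proliferation replicate 7. The listed fibroblast markers did not move together in that library. Tbx18 (11 against 412 counts), Pi16 (8 against 69), Foxc1 (554 against 855) and Fbln1 (1324 against 1458) were lower in it than in KO proliferation replicate 7. Among those highest in it, at few counts, were Col1a1 (14) and Col1a2 (3). The part of fibroblast-like cells in the Lum value was not tested.

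Dcn, Ogn and Omd stayed near the limit of detection in every library. Dcn had 1 and 0 counts in WT proliferation, 5 and 4 in KO proliferation, and after differentiation 0 and 2 in WT and 0 and 0 in KO. Ogn had 2 and 1, 0 and 1, 2 and 6, and 1 and 0 counts in the same order of groups. Omd had 0 counts in all 4 proliferation libraries, and on differentiation 2 and 2 in WT and 0 and 2 in KO. At 0 to 6 counts per library, differences in these genes are limited by depth. Dcn summed to 9 counts in KO proliferation and 1 in WT proliferation, a ratio of 9.23 with a 95% counting interval from 1.28 to 404. The intervals and floors given here reflect counting error alone.

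By mean TPM, the order in WT differentiation was Prelp (103.5 ± 15.6), Fmod (12.08 ± 8.76), Bgn (2.97 ± 0.311), Lum (0.275 ± 0.0495), Ogn (0.195 ± 0.134), Omd (0.14 in both libraries) and Dcn (0.07 ± 0.099; SD, n = 2). Lum, Ogn, Omd and Dcn are neighbours in that order whose values rest on 9 counts or fewer per gene over the group, and they cannot be ordered at this depth. In WT proliferation the order was Prelp (6.545 ± 3.91) and then Lum (1.89 ± 0.141; SD, n = 2). The other 5 members lay below 0.1 TPM there, on 4 counts or fewer per gene over the group, and cannot be ordered.

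The comparison of differentiation with proliferation asks how the cultures change when they leave growth conditions. In WT cells 3 of the 4 tested members rose and 1 fell (edgeR adjusted p under 0.05), where 27% of all tested genes were called higher and 28.3% lower (55.3% in all). In KO cells the same 3 rose and the same 1 fell, where 25.1% of all tested genes were called higher and 26.7% lower (51.8% in all). Libraries of the conditions were fully separated, 3 members higher and 1 lower, in either genotype. Over all tested genes such separation was seen in WT for 40.6% higher and 40.6% lower (81.2% in all), and in KO for 37.8% higher and 38.1% lower (75.9% in all). The median log2 fold change of the 4 was 4.34 in WT and 4.09 in KO, beside a median of 0.01 over all tested genes in each. Fmod, Bgn and Lum passed the filter only through the condition where they are high, so that median is no support for a difference.

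Prelp rose by 3.86 on the log2 scale in WT (SE 0.682), a 14.6-fold difference, and by 2.91 in KO (SE 0.659). Within replicate number 7 the log2 ratio was 3.20 in WT and 2.21 in KO, and within number 8 it was 4.85 and 4.2. The larger ratio of number 8 goes with the lower proliferation level of that number. Leaving out proliferation replicate 7 gave a log2 fold change of Prelp of 4.73 in WT and 4.16 in KO, and leaving out KO proliferation replicate 8 gave 2.26 in KO. Fmod was at least 213-fold higher in WT differentiation, counted against a floor of 3 counts over the WT proliferation group. That bound was 106 without WT differentiation replicate 8 and 316 without WT differentiation replicate 7. Without WT proliferation replicate 7 or 8 it was 106 or 107. In KO, where proliferation held 1 Fmod count in all, the ratio was 271 with a 95% counting interval from 48.2 to 10700. That ratio was 100 without KO differentiation replicate 8 and 136 without KO proliferation replicate 7. It was 431 without KO differentiation replicate 7, and without KO proliferation replicate 8 Fmod was at least 44.9-fold higher. The Fmod call in KO was lost with limma-voom (adjusted p = 0.0629). Bgn rose by 4.81 in WT (log2, SE 0.936), and its ratio in KO was 42.3 with a counting interval from 14.1 to 208. The Bgn ratio in KO was 21.2 without KO proliferation replicate 7 and 23.7 without KO differentiation replicate 8. Without KO proliferation replicate 8, whose 3 counts were all there were in that group, Bgn was at least 21-fold higher. Lum fell by 2.83 on the log2 scale in WT (SE 0.522) and by 3.15 in KO (SE 0.518). In these bulk samples, fewer cells of a type and less RNA per cell cannot be told apart.

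Marker sums of several other cell types, though not of all, differed between the conditions. Summed over 8 astrocyte markers, the level was 991.7 to 1033 CPM in WT proliferation, 855.8 to 1123 in KO proliferation, 9562 to 10030 in WT differentiation and 7128 to 8011 in KO differentiation. All 8 were detected in every group, but they rose unevenly. Aldh1l1 overlapped between conditions in KO, at 7.481 and 3.411 CPM in proliferation and 5.519 and 11.4 CPM in differentiation. The others lay higher in differentiation in both genotypes. The 16 listed fibroblast and leptomeningeal markers summed to 92.02 to 142 CPM in WT proliferation, 110.1 to 153.9 in KO proliferation, 52.38 to 70.06 in WT differentiation and 63.27 to 65.08 in KO differentiation. Only Fbln1 and Foxc1 of them passed 1 CPM in both libraries of any group, and 5, 3, 5 and 7 of the 16 had 0 counts in both libraries of these groups. Col1a1 never exceeded 0.758 CPM, Col1a2 never exceeded 0.1624 CPM and Dpt never exceeded 1 count. The markers of this list did not move together. Mfap5 had 0 counts in every proliferation library, and in differentiation 4 and 13 counts in WT and 4 and 14 in KO. Islr had 0 counts in both WT proliferation libraries and 9 and 8 in WT differentiation. In KO it had 2 and 2 counts in proliferation and 4 and 8 in differentiation. Other markers of the list were higher in single libraries. Tbx18 stood at 22.08 (WT) and 22.5 CPM (KO) in proliferation replicate 7, against 0.5844 and 0.5956 CPM in replicate 8. Col3a1 reached 6.064 CPM in KO proliferation replicate 8 and Pi16 3.768 CPM in KO proliferation replicate 7. The 9 mural cell markers summed to 43.74 to 75.97 CPM in proliferation and 206.6 to 249.3 CPM in differentiation, most of it Notch3. The 7 endothelial markers stayed below 4 CPM and the 5 microglial markers below 0.61 CPM in sum. The 6 oligodendrocyte precursor markers summed to 4133 to 5524 CPM in proliferation and 2010 to 3201 CPM in differentiation, but they did not move together. Olig1 and Olig2, which make up most of the sum, fell in both genotypes, while Pdgfra rose from a mean of 5.093 to 96.26 CPM and Gpr17 from 1.62 to 419 CPM in WT, and both rose in KO. The 7 neural stem markers summed to 4431 to 5430 CPM in proliferation and 3074 to 3891 CPM in differentiation, and they were divided too. Nes fell from a mean of 1452 to 188.5 CPM in WT, while Sox2 rose from 172.2 to 617.1 CPM and Msi1 from 38.3 to 135.4 CPM, with the same directions called in KO. The 7 Schwann cell markers summed to 14.56 to 43.8 CPM in proliferation and 9.9 to 13.13 CPM in differentiation. Sums of the 8 ependymal markers overlapped between conditions, at 101.8 to 143.1 CPM in proliferation and 121.1 to 186 CPM in differentiation. The part of these cell types in the proteoglycan differences was not tested.

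The comparison of KO with WT asks how the genotypes differ within a condition. The labels do not say whether WT cells received virus or carried the deletable allele, so these and YAP1 depletion cannot be told apart. In differentiation, none of the 4 tested members passed (edgeR), and 0% of all tested genes did. At an unadjusted p under 0.05, 4.77% of all tested genes passed and none of the members did, and DESeq2 called no member either. Libraries of the genotypes were separated for 1 of the 4, Prelp, which was lower. Over all tested genes 15.6% were separated with KO lower and 15.9% with KO higher (31.5% in all). The median log2 fold change of the 4 was -0.41, against 0.01 over all tested genes.

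Prelp in KO differentiation stood at 85.97 and 90.77 CPM, against 154.4 and 183.9 CPM in WT. The log2 difference was -0.94 (SE 0.604), with an edgeR adjusted p of 0.945. Between libraries of number 7 it was -0.85 and between those of number 8 it was -1.02, so KO libraries held 0.557 and 0.493 of the WT level. The authors' deposited table gives Prelp a log2 fold change of -0.93 with a q-value of 0.000782. A fit of only the 4 differentiation libraries, chosen after seeing the data, gave the same -0.94, with an adjusted p of 0.000458 in DESeq2 (SE 0.18) and of 1 in edgeR (SE 0.14). In the DESeq2 fit of all 8 libraries the adjusted p was 1, and with limma-voom it was 0.938.

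Fmod in KO differentiation was at 2.731 and 11.72 CPM, against 8.414 and 25.14 CPM in WT. The log2 difference was -1.21 (SE 0.845), with an edgeR adjusted p of 0.953. Between libraries of number 7 it was -1.62 and between those of number 8 it was -1.1. The KO value was the lower one within both numbers, although KO replicate 8 exceeded WT replicate 7. The fitted value was -2.62 without KO differentiation replicate 8 and -0.22 without WT differentiation replicate 8. The authors' deposited table gives Fmod -1.22 with a q-value of 1. Bgn differed by 0.11 (SE 0.71) and Lum by 0.15 (SE 0.567) in log2 fold change, and each had opposite signs within numbers 7 and 8.

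In proliferation, none of the 4 tested members passed (edgeR), where 0.00767% of all tested genes, Yap1 alone, were called. At an unadjusted p under 0.05, 2.25% of all tested genes and none of the members passed. None of the 4 had separated libraries, beside 14.7% of all tested genes with KO higher and 15.6% with KO lower (30.3% in all). Among the untested members, the 5 and 4 Dcn counts of KO lay above the 1 and 0 of WT, whereas in differentiation the 1 and 0 Ogn counts of KO lay below the 2 and 6 of WT (ratio 0.126, 95% counting interval 0.00283 to 0.938). Omd, at 0 and 2 counts in KO and 2 and 2 in WT differentiation, was too low to compare. Prelp stood at 16.83 and 6.375 CPM for WT, against 18.57 and 4.927 CPM for KO, a log2 difference of 0.02 (SE 0.644, edgeR adjusted p = 1). Leaving out KO proliferation replicate 7 turned that value to -1.24 and leaving out WT proliferation replicate 8 to -0.53, and its sign also turned with limma-voom. Lum had a log2 fold change of 0.47 (SE 0.449), which was -0.01 without KO proliferation replicate 8, and Bgn of -0.35 (SE 1.19). For Fmod, with 0 and 1 count, no fold is given. The median of the 4 was 0.24 and dropped to 0.03 with Fmod at the 3-count floor, against 0 over all tested genes.

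The difference between the KO effects of both conditions passed for 0% of tested genes and for none of the 4 members (edgeR adjusted p from 0.994 to 1), and 4.28% of all tested genes had an unadjusted p under 0.05. For Prelp it was -0.95 (SE 0.881) on the log2 scale. None of the 4 had libraries separated in both conditions in opposite directions, which 7.06% of all tested genes had (3.28% with KO higher in proliferation and lower in differentiation).

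**Figure D2:**
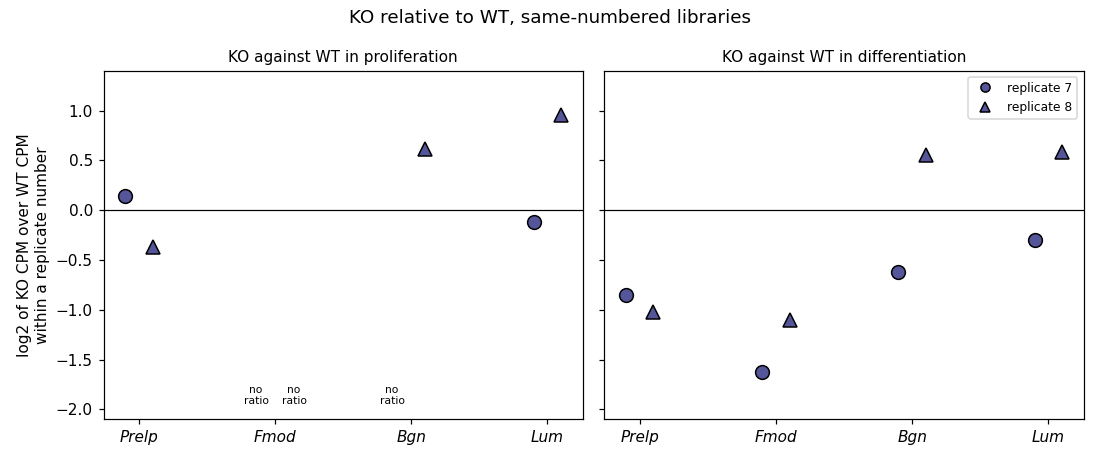
Log2 ratio of KO CPM over WT CPM between libraries of the same replicate number, for Prelp, Fmod, Bgn and Lum in proliferation (left) and differentiation (right), with "no ratio" where a library had 0 counts. In differentiation Prelp (-0.85 and -1.02) and Fmod (-1.62 and -1.1) lie below 0 in both numbers, while Bgn and Lum lie on both sides.

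Across the 8 libraries, the genes whose log2 CPM pattern was most like that of Fmod were Fam129b (Pearson r = 0.9984), Clu (0.9967) and Plin4 (0.9967). For Prelp they were S100a4 (r = 0.994), Sfxn3 (0.9898) and Ampd3 (0.9896). These r values describe 8 libraries that form clusters by condition, and 1062 genes for Fmod and 413 for Prelp exceeded 0.95. Plin4 shared with Fmod a count of 0 in all 4 proliferation libraries. S100a4 shared with Prelp the lower proliferation value of replicate 8, at 1.959 and 0.5844 CPM for WT, then 1.693 and 0.5415 CPM for KO.

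Beyond the 7, the table lists 10 of 11 other leucine-rich matrix proteins, and 6 of these were tested. In differentiation 4 of the 6 rose in WT and the same 4 rose in KO, with none lower, where 27% of all tested genes rose and 28.3% fell in WT, and 25.1% and 26.7% in KO. These shares over all tested genes also stand behind the counts of the lists that follow. Ecm2, a matrix protein that neighbours Aspn, rose by 1.71 (SE 0.209) in WT and 1.68 (SE 0.211) in KO on the log2 scale. Opticin (Optc), known from the eye's vitreous, rose by 2.57 (SE 0.378) and 2.76 (SE 0.383). Chadl, a relative of chondroadherin, rose by 2.94 (SE 0.665) and 2.36 (SE 0.645). As deposited, Chadl carries the plus strand, whereas RefSeq places it on the minus strand, and some of its estimated counts were not whole. Its reads may be shared with another gene. Podocan (Podn) rose by 4.45 (SE 0.535) and 2.61 (SE 0.494). The Chadl call was lost without WT proliferation replicate 7 in WT (adjusted p = 0.0623), and without KO proliferation replicate 7 (0.101) or KO differentiation replicate 8 (0.105) in KO. Leaving out KO differentiation replicate 8 also moved the log2 fold change of Podn in KO to 1.83.

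Tsku, which encodes the secreted protein tsukushi, was called in neither genotype and stood at 20.85 ± 0.792 TPM in WT proliferation and 26.03 ± 0.933 TPM in WT differentiation (SD, n = 2). Nyx, known from the retina, was not called in either genotype, with log2 fold changes of 1.26 (SE 0.953) and 2.11 (SE 1.04). Aspn, Kera, Chad and Podnl1 had at most 1 count in any library. None of the 6 passed in KO against WT in either condition.

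**Figure D3:**
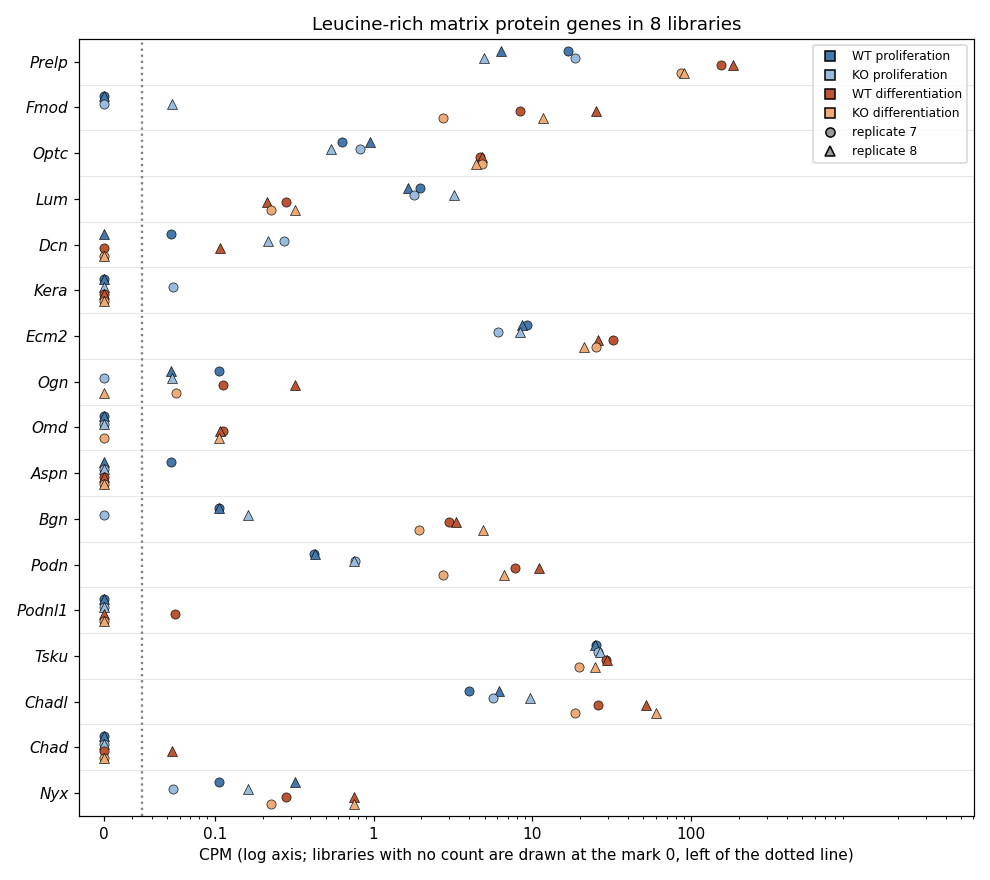
CPM (log axis, with libraries at 0 drawn left of the dotted line) of the 7 proteoglycan genes and 10 further leucine-rich matrix protein genes in each of the 8 libraries, coloured by group. Prelp, Fmod, Bgn, Optc, Ecm2, Chadl and Podn lie further right in differentiation, Lum lies further left, and Dcn stays at or below 0.273 CPM.

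The clusters differed in how their genes behaved. At the cluster of Optc, Prelp and Fmod all 3 genes rose, where 27% of all tested genes were called higher in WT and 25.1% in KO. The flanking Atp2b4, a calcium pump gene, rose by 3.11 (SE 0.973, edgeR adjusted p = 0.0332) in WT and 3.01 (SE 0.995, edgeR adjusted p = 0.0427) in KO. Btg2, an antiproliferative gene 26.6 kb from Fmod, rose by 1.54 (SE 0.308) and 1.71 (SE 0.31). Chit1, which also flanks this cluster, was not tested and stood at or below 0.05689 CPM in every library. At the Dcn cluster only Lum was tested, and it fell. At the cluster of Ecm2, Aspn, Omd and Ogn, Ecm2 rose while the others were at or near 0 counts. The latter 4 genes lie inside the span of Cenpp, a centromere protein gene on the opposite strand, which fell by 4.28 in WT (SE 0.411) and by 3.55 in KO (SE 0.395). The flanking Ippk, Nol8 and Iars fell by 0.52 (SE 0.148), 0.66 (SE 0.121) and 1.25 (SE 0.113) in WT, and of them only Iars was called in KO. Use of the strand in counting is not given in the sources used here, so reads of Cenpp and of genes inside it may not be told apart. Optc as deposited overlaps Prelp by 4520 bp and carries the plus strand, whereas RefSeq places it on the minus strand, so reads may be shared there too.

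**Figure D4:**
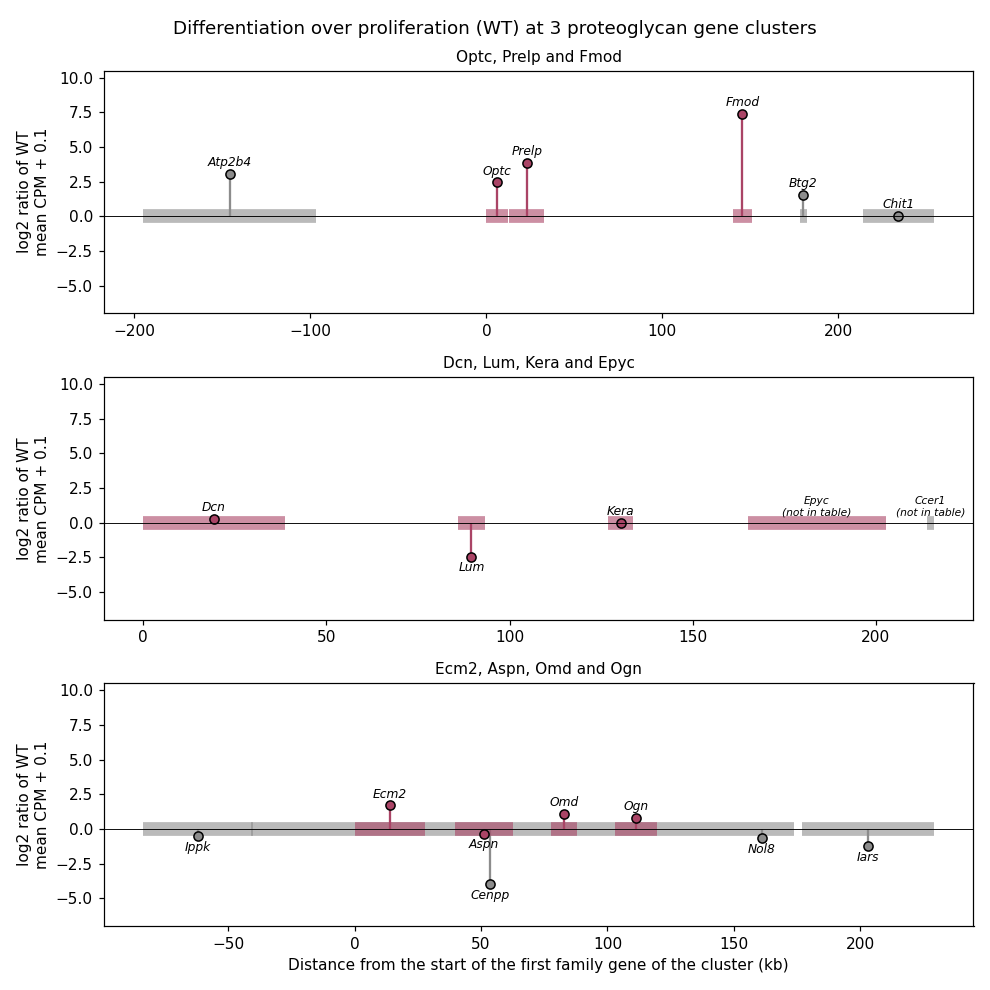
Log2 ratio of mean WT CPM in differentiation over proliferation (0.1 added to each mean) for family genes (red) and flanking genes (grey), against distance in kb from the first family gene of each cluster, with thick bars as gene spans. Optc, Prelp and Fmod all lie above 0 (the height of Fmod depends on the added value, since WT proliferation had 0 counts), Lum lies below 0, and Ecm2 lies above 0 inside the span of Cenpp, which lies below 0.

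Of 21 tested genes of glycosaminoglycan linker and chondroitin or dermatan sulfate synthesis, 2 rose and 10 fell in WT, and 1 rose and 11 fell in KO, beside 27% higher and 28.3% lower of all tested genes in WT and 25.1% and 26.7% in KO. The median log2 fold change was -0.58 and -0.57, against 0.01 over all tested genes. Xylt1, which starts the chain by adding xylose, fell by 1.81 in WT (SE 0.11) and by 1.5 in KO (SE 0.109). Chsy1 and Chsy3, chondroitin synthases, fell by 1.55 (SE 0.123) and by 3.19 (SE 0.357) in WT. The sulfotransferase gene Chst7 fell by 3.52 in WT (SE 0.357) and by 3.55 in KO (SE 0.357). Chst15, another sulfotransferase gene of chondroitin sulfate, rose by 2.88 (SE 0.337) and 2.97 (SE 0.336).

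Of 8 tested genes of keratan sulfate synthesis and tyrosine sulfation, 2 rose and 2 fell in each genotype, about the shares over all tested genes given above. The median was 0.7 in WT and 0.46 in KO. B4galt1, a galactosyltransferase gene, lost its lower call in WT without WT proliferation replicate 7 (adjusted p = 0.1), WT differentiation replicate 7 (0.0652) or WT differentiation replicate 8 (0.101). Chst1, which adds sulfate to keratan sulfate galactose, had 1 and 6 counts in WT proliferation and 753 and 586 in WT differentiation. The KO libraries had 2 and 5 counts in proliferation and 629 and 859 in differentiation. No library overlapped between conditions, and the log2 fold change was 7.58 (SE 0.537) in WT and 7.70 (SE 0.538) in KO. With few proliferation counts, 1 library moved it, to 6.83 without WT proliferation replicate 7 and, on a single remaining count, to 9.27 without WT proliferation replicate 8. In KO it moved to 8.47 without KO proliferation replicate 8. Tpst1, a sulfotransferase that acts on tyrosines, fell by 1.38 (SE 0.139) in WT and by 1.55 (SE 0.14) in KO. Fibromodulin carries both kinds of sulfated group in other tissues.

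Of 13 tested collagens and lysyl oxidases, 1 rose and 2 fell in WT, and 3 rose and 4 fell in KO, with medians of -0.12 and -0.96. Over all tested genes 55.3% were called in WT and 51.8% in KO. Col1a1, 1 of the 2 that fell in WT, lost its call without any 1 of the 4 WT libraries (adjusted p from 0.0599 to 0.114). Col12a1, 1 of the 3 that rose in KO, lost it without KO proliferation replicate 7 (0.0959) or KO differentiation replicate 8 (0.092). Col5a1, a collagen that starts fibrils, fell by 2.18 in WT (SE 0.355) and by 2.09 in KO (SE 0.352), and by 2.77 in WT without WT differentiation replicate 8. Col2a1 had 0 counts in KO proliferation and 25 in KO differentiation, at least 8.45-fold higher against the 3-count floor. Of these 25 counts, 20 were in KO differentiation replicate 8 and 5 in replicate 7. Col11a2 rose by 4.31 in WT (SE 1.12), a call lost without WT proliferation replicate 7 (adjusted p = 0.0933), WT proliferation replicate 8 (0.058) or WT differentiation replicate 8 (0.0729), and with limma-voom.

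A further list holds proteases that process or cleave these proteoglycans, together with enhancers of procollagen processing. Of its 9 tested genes, 2 rose and 2 fell in WT, and 2 rose and 3 fell in KO, with medians of 0.43 and 0.05. Over all tested genes 27% rose and 28.3% fell in WT, and 25.1% and 26.7% in KO. Of the WT calls, Adamts5 was lost without WT proliferation replicate 7 (adjusted p = 0.0787) or WT differentiation replicate 7 (0.072), and Tll1 without WT proliferation replicate 7 (0.0898) or WT differentiation replicate 8 (0.096). Pcolce was lost in WT without WT proliferation replicate 8 (0.0946) or WT differentiation replicate 8 (0.101). In KO, Adamts4 was lost without KO proliferation replicate 8 (0.0862) or KO differentiation replicate 7 (0.0784). Htra1, a secreted serine protease, rose by 1.75 (SE 0.18) in both genotypes. Pcolce, an enhancer of procollagen processing, fell by 3.59 in KO (SE 0.566), and by 4.22 without KO differentiation replicate 8.

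Of 12 tested TGF-beta ligands, receptors and other receptors of these proteins, 4 rose and 2 fell in WT, and 3 rose and 3 fell in KO, with medians of -0.25 and -0.21. These counts lie near the shares of all tested genes, 27% higher and 28.3% lower in WT and 25.1% and 26.7% in KO. Tlr2, a receptor of innate immunity and 1 of the 4 that rose in WT, lost its call without WT proliferation replicate 8 (adjusted p = 0.122), WT differentiation replicate 7 (0.0719) or WT differentiation replicate 8 (0.076). Lrp1, an endocytic receptor of decorin, rose by 1.70 (SE 0.106) in WT and 1.20 (SE 0.104) in KO. Met, a receptor that decorin binds, rose by 5.23 (SE 0.329) and 2.99 (SE 0.297). Tgfb2, a growth factor ligand, rose by 2.34 (SE 0.19) and 1.37 (SE 0.184). Tgfbr1, the type I receptor, fell by 0.70 (SE 0.102) and by 0.50 (SE 0.102).

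In KO against WT, no tested gene of these lists passed in either condition (edgeR). The smallest unadjusted p in proliferation was that of Lrp1, whose KO libraries were at 354.5 and 321.2 CPM beside 182.6 and 200.7 CPM for WT, a log2 difference of 0.82 (SE 0.103, edgeR adjusted p = 0.373). DESeq2 called Lrp1 there (adjusted p = 9.15e-11). In differentiation it was that of Met, whose KO libraries were at 5.519 and 6.262 CPM beside 12.51 and 15.87 CPM for WT, a log2 difference of -1.27 (SE 0.263, edgeR adjusted p = 0.909). Libraries of the genotypes did not overlap for either gene, beside 30.3% of all tested genes in proliferation and 31.5% in differentiation. Both genes were picked by their p, so the separation is no support for a difference.

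**Figure D5:**
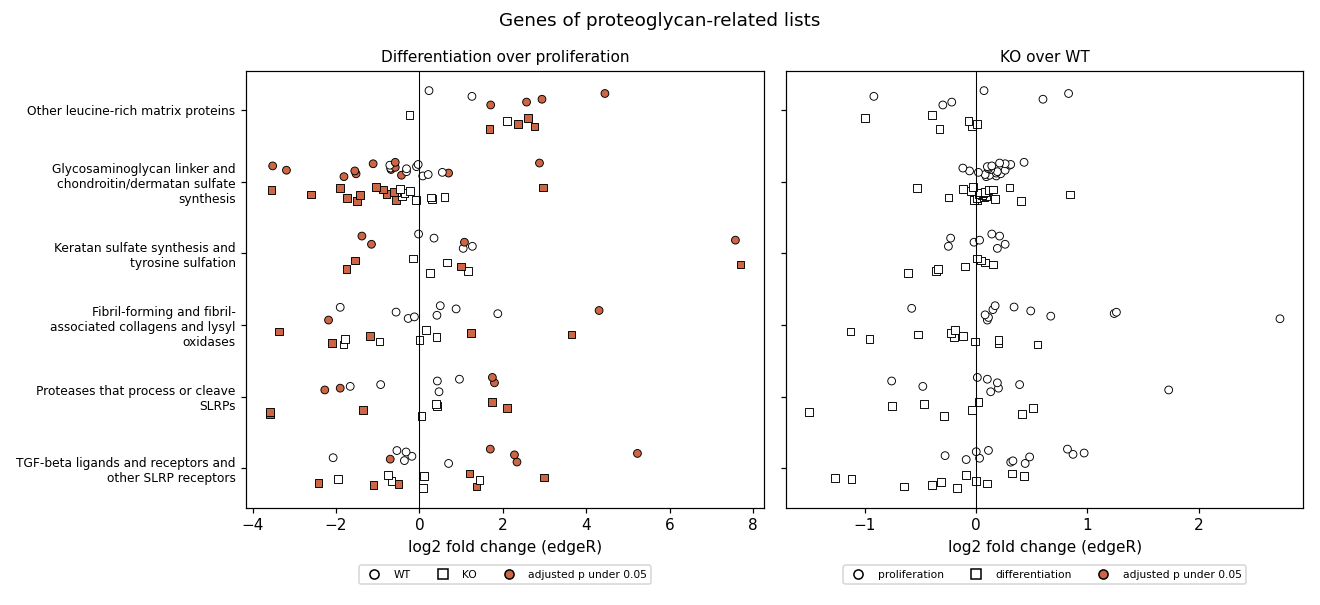
Log2 fold change (edgeR) of tested genes in 6 lists, for differentiation over proliferation in WT (circles) and KO (squares) on the left and for KO over WT in proliferation (circles) and differentiation (squares) on the right, leaving out genes with 3 or fewer counts in a group. Filled points have an adjusted p under 0.05, which is seen on the left, where Chst1 reaches 7.58 and 7.70, and at no point on the right.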

How the data were processed

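Per the labels' protocols, poly(A) RNA was made into stranded (dUTP) libraries and read with DNBSEQ. The deposited table holds estimated counts per gene, not normalised, and TPM values, per the file headers. Per the file headers, log2 fold changes and q-values of DESeq2 comparisons made by the authors are also deposited. Aligner, counter and use of the strand in counting: not given in the sources used here. The submitters' processing notes name GRCm39, but 85.4% of the 16874 genes found in RefSeq GRCm38.p6 start at the identical base there, so positions are taken as GRCm38. A further 12 labelled samples were left aside (not analysed here), and 12 per-library columns of 4 libraries that match no label were not used. One line without a gene was left out.

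Estimated counts were rounded (6.51% of values were not whole). CPM are counts scaled to TMM-adjusted library size, and ± is the SD of 2 libraries. Genes were tested mainly with edgeR 4.0.16 in R 4.3.3 (quasi-likelihood, robust, two-sided, filterByExpr, 1 model with 4 group terms and 4 residual degrees of freedom). Benjamini-Hochberg adjustment ran over 13046 genes with a threshold of 0.05, and it was tested on simulated data. SE is the size of the log2 fold change divided by the square root of F. Alternatives were other size factors, no filter, DESeq2 1.42.0, limma-voom 3.58.1, a replicate block and each library left out. Fits of only the 4 libraries compared were added after seeing the data. Depth was 18075595 to 18940983 counts per library. Promoter windows are RefSeq's.

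Members and gene lists were chosen with earlier results of these data known, so adjusted p-values of members are descriptions. All members are named. From each other list the rule allowed up to 5 called genes with the smallest p per comparison, or up to 2 where none passed, of which a selection is given. Genes most alike were the 3 with the highest Pearson r on log2 CPM (prior count of 2) for members with a mean of at least 5 CPM.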

Additional observations from a re-analysis of the deposited data

Results flagged for a closer look

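Podn, Tsku, Met and Tgfb2 are examples of genes whose KO libraries lay above WT in proliferation and below WT in differentiation without overlap. They are not all such genes of the lists, since Tgfb3 and B3gat3 also had this pattern. Over all tested genes, 3.28% had it. The difference between both KO effects was tested in edgeR and passed for no tested gene. Podn had KO log2 fold changes of 0.83 (SE 0.532) in proliferation and -1 (SE 0.447) in differentiation, a difference of -1.84 (SE 0.695, edgeR adjusted p = 0.981). Without KO differentiation replicate 8 the Podn values were -1.78 in differentiation and -2.61 for the difference. With other libraries left out they came as near to no change as -0.5 and -1.33. Tsku had 0.07 (SE 0.137) and -0.4 (SE 0.137), a difference of -0.47 (SE 0.194, edgeR adjusted p = 0.981). Met had 0.97 (SE 0.331) and -1.27 (SE 0.263), a difference of -2.24 (SE 0.422, edgeR adjusted p = 0.981). Tgfb2 had a difference of -0.96 (SE 0.257, edgeR adjusted p = 0.981). Podn and Tsku encode leucine-rich matrix proteins, Met a receptor that decorin is known to bind, and Tgfb2 a TGF-beta ligand.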

How the results depend on the processing

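With 2 libraries per group, the count of called members in differentiation against proliferation was 4 in each genotype whichever library was left out. In KO against WT in differentiation 1 member, Prelp, was called when DESeq2 was run on only the 4 libraries compared. Over all genes, KO against WT in proliferation called 1 gene, against 12 with DESeq2, 0 (edgeR) and 16 (DESeq2) with only the 4 libraries compared, and 0 with any library left out. In differentiation it called 0, against 1 without the filter, 40 with DESeq2 and 25 with DESeq2 on the 4 libraries compared. The difference between KO effects called 0, against 13 with DESeq2. The cause was not tested.

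In KO against WT in proliferation, the log2 fold change of Prelp turned to -0.12 with limma-voom and ranged from -1.24 to 0.87 with a library left out. That of Lum then ranged from -0.01 to 0.82 and that of Bgn from -0.36 to 0.58, leaving out fits in which a group had 0 counts, as is always so for Fmod in WT proliferation. In differentiation, Bgn turned to -0.02 with limma-voom and ranged from -0.7 to 0.63, and Lum ranged from -0.11 to 0.37. For the difference between KO effects, Prelp ranged from -1.81 to 0.3, Lum from -0.67 to 0.15 and Bgn from -0.47 to 0.98. Yap1 lost its call in proliferation with any library left out (-2.58 to -2.3).

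Replicate numbers are shared between groups, but the labels do not say that they pair samples. Same-numbered libraries deviated together (correlations from 0.538 to 0.784). With the replicate block, KO against WT called 2 genes in proliferation and 3 in differentiation, no member among them, and Prelp in proliferation turned to -0.01. Nyx passed in KO differentiation with the block (2.09, edgeR adjusted p = 0.022).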
